A study of Homo sapiens with 6 samples.

Results

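The proteasome subunits and assembly factors of this array study were the genes whose symbols start with PSM followed by a letter from A to G and a digit, without the interferon-inducible subunits PSMB8 and PSMB9. Of 19775 genes with a probe set of their own, 48 symbols matched this pattern. For 40 of them the symbol names a proteasome protein: 15 core subunits (PSMA and PSMB), 20 regulator genes (PSMC, PSMD and PSME), 4 assembly chaperones (PSMG) and the inhibitor PSMF1. The other 8 share only the name pattern. They are 4 antisense transcripts, a pair of divergent transcripts and the proteins PSMC3IP and PSME3IP1. Each gene is represented by its probe set with the highest mean over the 6 arrays.

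The arrays came from U87-2M1 cells, an invasive line grown out of the human glioma line U87 after a lung metastasis assay in animals. Cells of both groups were at passage 4, were kept in hypoxia and carried a baculoviral vector, an insect virus used to bring genes into mammalian cells. In 3 samples the vector held a control decoy, and in 3 it held a decoy for miR-10b. A decoy is a transcript that offers a microRNA sites to bind in place of its targets, and the comparison addresses which transcripts differ when such a decoy is present. These arrays hold no measure of how much miR-10b the decoy held back. Nothing in the labels says that the 3 samples of a group were separate cultures, so a p-value here measures only how these samples spread, and that spread may be technical. In RNA from whole cultures, fewer cells that express a gene and less RNA per cell cannot be told apart.

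The proteasome is the barrel-shaped protease that degrades proteins tagged with ubiquitin. Its core particle is built from rings of alpha subunits, which gate the entrance, and rings of beta subunits, 3 kinds of which cut peptide bonds. The regulatory particle (19S) sits on the core: its base holds a ring of ATPases that unfold the substrate and subunits that bind ubiquitin, and its lid holds the enzyme that takes ubiquitin off. Dedicated chaperones assemble both particles and then leave, and cells that lack proteasome activity raise most subunit genes together through the transcription factor NFE2L1. Many tumour cells depend on this machinery, and proteasome inhibitors act on the catalytic beta subunits.

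The deposited signals were not on a common scale, since the 2%-trimmed mean of control replicate 3 was 192 while those of the other 5 arrays ran from 155 to 163. All signals below are therefore quantile-normalized, and differences are in log2(signal + 7), decoy minus control. The ratio of the 3′ to the 5′ actin probe sets, a measure of RNA or labelling quality, ran from 5.27 to 6.22 on the control arrays and from 7.36 to 10.6 on the decoy arrays. This ratio moved with the groups, and its part in the differences was not tested. The glioma and mesenchymal markers VIM (9937 and 9932 in the control and decoy means) and CD44 (7517 and 7571) were bright, whereas the glial markers GFAP, S100B and OLIG2 lay below the filter on low signals. OLIG2 read 0.81, 5.23 and 7.80 in the controls and 19.7, 19.7 and 29.9 with the decoy, without overlap, and was not tested. The neural progenitor marker NES was lower with the decoy (486 ± 32.6 and 372 ± 40.5; −0.38, adjusted p = 0.00776, limma), also on the deposited signals and after centring, and SOX2 did not pass the test (24.1 and 15.5; −0.44, adjusted p = 0.374). Of 13 markers of immune, endothelial, epithelial and neuronal cells, 6 passed the filter. Of these 6, 2 were lower with the decoy (SNAP25 and PECAM1) and 0 were higher, beside 17.3% and 16.6% of all tested genes. The summed signal of the 13 markers was 1132 to 1169 on the control arrays and 757 to 785 on the decoy arrays. The neuronal gene SNAP25 made up most of that gap (628 and 338 in the control and decoy means), and the epithelial keratins KRT8 (52.1 and 58.0) and KRT18 (24.6 and 30.2) were not lower. The part of these markers in the results was not tested.

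On the probe sets used, most proteasome transcripts moved little in either direction. Of the 40 proteasome genes, 39 passed the filter at the 30th percentile of mean signal. The exception was PSMA8, the alpha subunit made in testis, with signals of 5.05, 7.86 and 7.87 in the controls and 1.62, 9.43 and 8.52 with the decoy. Of the 39, 10 were higher with the miR-10b decoy, 4 were lower and 25 did not pass an adjusted p of 0.05 (limma with an intensity trend, Benjamini-Hochberg over the 13842 genes tested). These 14 genes are 35.9% of those tested, and 33.9% of all tested genes passed the same test. The share called higher was 25.6%, against 16.6% of all genes, and the share called lower was 10.3%, against 17.3%. The 3 decoy arrays lay beyond the 3 control arrays for 21 of the 39 genes, above them for 13 and below them for 8, and this occurred for 46.4% of all tested genes.

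The differences of the proteasome genes were small. Their median absolute difference was 0.11 on the log2 scale, against 0.24 over all tested genes. For 34 of 39 genes (87.2%) it was under 0.25, which holds for 52.1% of all genes, and for 18 (46.2%) it was under 0.1, which holds for 23.1% of all genes. Only PSMD8 and PSMF1 differed by more than 0.5. The median standard error of the differences was 0.05 for the proteasome genes and 0.11 over all genes, so smaller differences passed the test here. The proteasome genes were also brighter, with a median signal of 2215 against 206 over all tested genes. The part of brightness in the small differences was not tested, and dimmer probe sets of some members differed by more, as given below. The median signed difference was 0.02, and over all genes it was −0.02.

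**Figure D1:**
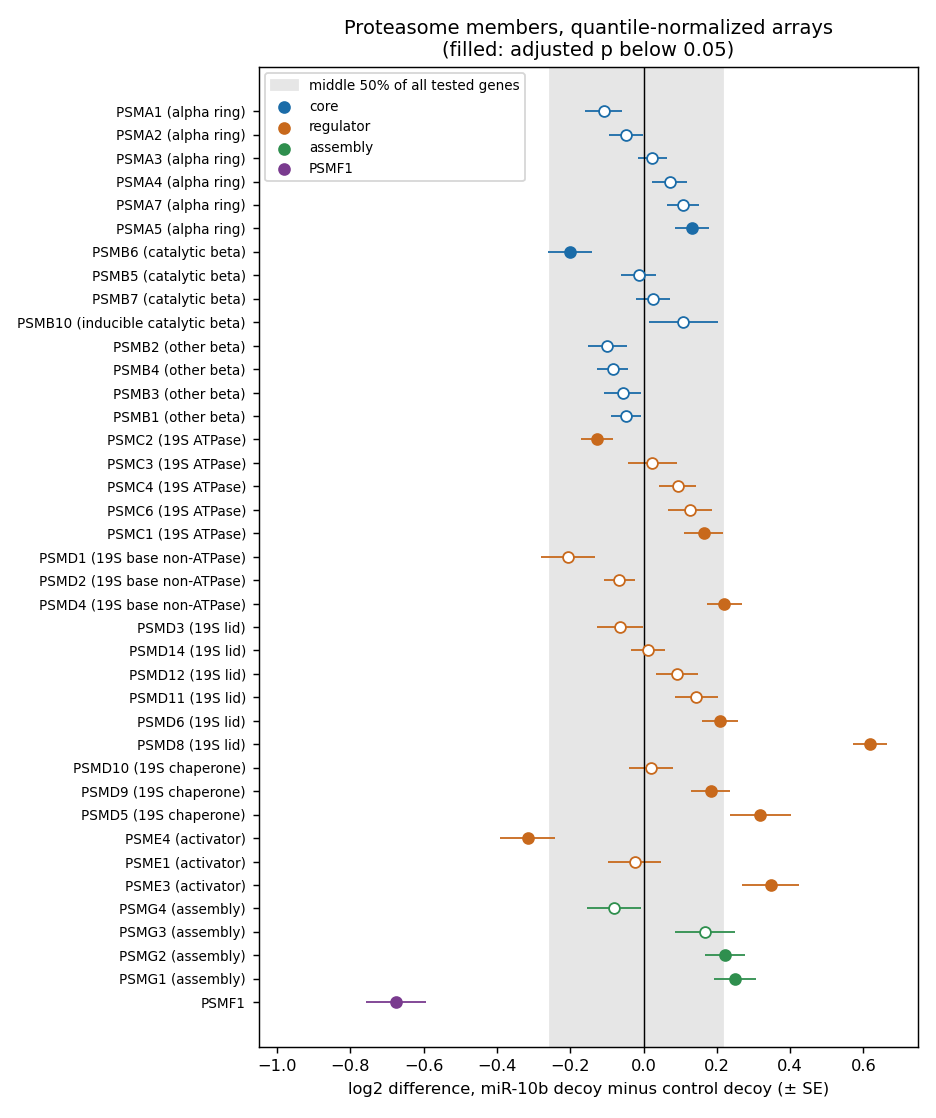
Log2 difference in quantile-normalized signal (miR-10b decoy minus control decoy, horizontal axis) with its standard error for the 39 tested proteasome genes, coloured by class and filled where the adjusted p is below 0.05; the grey band spans the middle 50% of all tested genes, from −0.25 to 0.22. Most genes lie inside the band, with PSMD8 (0.62) to its right and PSMF1 (−0.68) to its left as the points farthest out.

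By class, in the core, 1 of 14 tested genes was higher and 1 was lower, with a median difference of −0.03 and a range from −0.20 to 0.13. In the regulators, 7 of 20 were higher and 2 were lower, with a median of 0.09 and a range from −0.32 to 0.62. The higher regulator genes include PSMD5 and PSMD9, which are chaperones of the base. Of the 4 assembly chaperones, 2 were higher and 0 were lower, with a median of 0.19 and a range from −0.08 to 0.25. Over all tested genes, 16.6% were higher and 17.3% were lower, and the difference between the classes was not tested. Array by array, the median of the core lay 0.03, −0.03 and −0.07 from the control mean on decoy replicates 1, 2 and 3. The regulators lay at 0.03, 0.09 and 0.12, and the assembly chaperones at 0.27, 0.13 and 0.15 on the same arrays.

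How the arrays are scaled decides many of these calls. On the deposited signals without further scaling, the median of all tested genes was −0.14, and 1 proteasome gene was higher and 4 were lower. With each array centred on its median, 4 were higher and 8 were lower. In the core these scalings gave 0 higher and 1 lower, and 0 and 4, in the regulators 1 and 2, and 3 and 3, and among the assembly chaperones 0 and 0, and 1 and 0. Over all genes the calls split into 2294 higher and 2401 lower after quantile normalization (48.9% higher), 1094 and 2561 on the deposited signals (29.9% higher) and 2141 and 2563 after centring. Of the 14 proteasome calls, 4 held under all 3 scalings: PSMD8 was higher, and PSMB6, PSME4 and PSMF1 were lower.

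**Figure D2:**
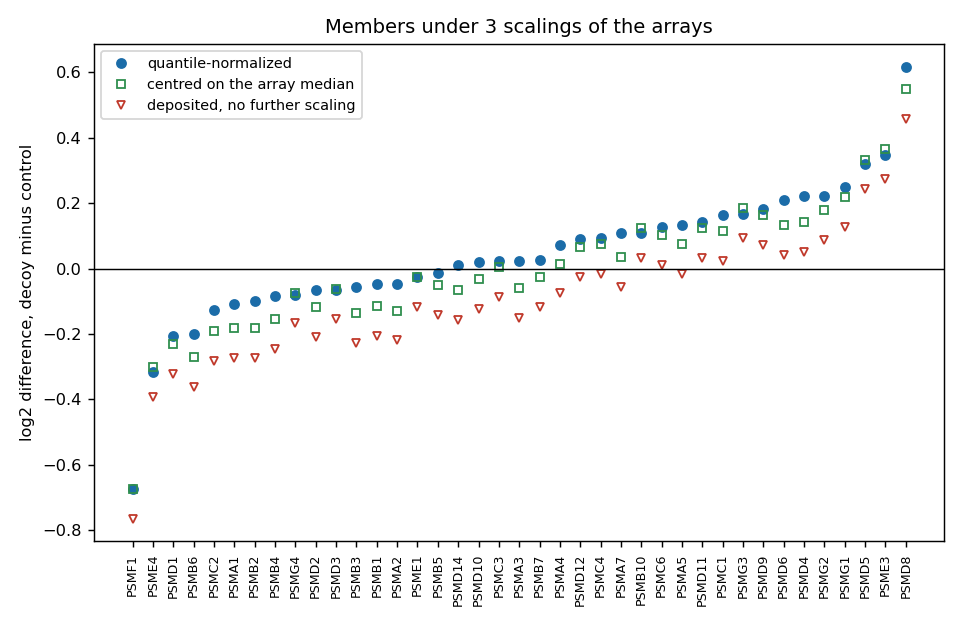
Log2 difference (decoy minus control, vertical axis) of each tested proteasome gene, ordered from left to right by its quantile-normalized value, under 3 scalings of the arrays. The deposited signals lie below the other points for every gene shown, and PSMD8 at the right end and PSMF1 at the left end keep their places.

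Among the catalytic beta subunits, PSMB6, which carries the caspase-like activity, fell with the decoy. Its signal was 3362, 3371 and 3352 on the 3 control arrays and 3162, 2973 and 2659 on the 3 decoy arrays. The groups did not overlap, and the decoy arrays spread far more (2932 ± 254, SD, n = 3) than the controls (3362 ± 9.65). The difference was −0.20 (SE 0.06, adjusted p = 0.0214, limma). It was −0.36 on the deposited signals (adjusted p = 0.0232), and it did not pass the test without decoy replicate 3 (−0.13, adjusted p = 0.0633) or without control replicate 2 (adjusted p = 0.0609). Without an intensity trend its adjusted p was 0.125, without moderation it was 0.136, and without the filter it was 0.0522.

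PSMB5, the chymotrypsin-like subunit that proteasome inhibitors bind first, did not differ beyond the spread of the arrays. Its signal was 2002, 2035 and 2000 in the controls and 2051, 1970 and 1961 with the decoy, a difference of −0.01 (SE 0.05, adjusted p = 0.857, limma). PSMB7, the trypsin-like subunit, read 5685, 5482 and 6072 in the controls and 5984, 5638 and 5907 with the decoy. The groups overlapped, with a difference of 0.02 (SE 0.05, adjusted p = 0.717, limma) whose sign turned on the deposited signals (−0.12) and after centring (−0.03). PSMB10 replaces PSMB7 in the interferon-inducible proteasome. Its signal was 656, 653 and 611 in the controls and 696, 791 and 597 with the decoy, so that the lowest and the highest arrays both belonged to the decoy group (0.11, SE 0.09, adjusted p = 0.413, limma).

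Among the beta subunits without a catalytic site, PSMB1, PSMB2, PSMB3 and PSMB4 had differences of −0.05, −0.10, −0.06 and −0.08, and 0 of the 4 passed the test, with adjusted p-values of 0.407, 0.185, 0.425 and 0.146 (limma). All 4 values were negative. For PSMB4 the decoy arrays (4778, 4860 and 4989) all lay below the controls (5055, 5382 and 5074), and for the other 3 genes the groups overlapped. PSMB2 passed as lower after centring (−0.18, adjusted p = 0.0395), with the mean of its probe sets (−0.54, adjusted p = 0.00776) and with the probe set free of a cross-hybridisation suffix (−0.51, adjusted p = 0.00198). PSMB4 passed as lower after centring (−0.16, adjusted p = 0.0424).

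In the alpha ring, PSMA5 was the 1 gene of 6 tested that passed the test. Its signal was 3273, 3387 and 3276 in the controls and 3793, 3586 and 3518 with the decoy, without overlap, which is a difference of 0.13 (SE 0.05, adjusted p = 0.0417, limma). The direction turned on the deposited signals (−0.02, adjusted p = 0.943), and without any 1 array other than decoy replicate 3 the adjusted p lay between 0.0657 and 0.152. PSMA1 lay at the other end, with 5508, 4984 and 4958 in the controls and 4917, 4574 and 4826 with the decoy (−0.11, adjusted p = 0.118), and it passed as lower after centring (−0.18, adjusted p = 0.0243). The differences of PSMA2, PSMA3, PSMA4 and PSMA7 were −0.05, 0.02, 0.07 and 0.11, and none of them passed the test (adjusted p = 0.479, 0.681, 0.289 and 0.0766). The second probe set of PSMA2, the one free of a cross-hybridisation suffix, read 360, 386 and 413 in the controls and 303, 317 and 293 with the decoy, without overlap. PSMA2 passed as lower on that probe set (−0.34, adjusted p = 0.00977) and with the mean of both (−0.19, adjusted p = 0.0264). PSMA7 passed as higher without decoy replicate 3 (0.14, adjusted p = 0.0394). The signs of PSMA3, PSMA4 and PSMA7 turned on the deposited signals.

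PSMD8, a subunit of the regulatory particle's lid, rose more than any other of the 39 genes. Its signal was 3104, 3231 and 3408 on the control arrays and 4980, 4940 and 5035 on the decoy arrays. The decoy arrays lay close together (4985 ± 47.8) and far above the controls (3248 ± 153). The difference was 0.62 (SE 0.05, adjusted p = 2.54e-06, limma), or 1.53-fold. This was the 1 call of the 14 that held in all 17 alternative settings, with 0.46 on the deposited signals (adjusted p = 0.00302) and 0.55 after centring. PSMD8 has a single probe set, so no second one bears on it.

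The upstream sequence of PSMD8 is shown because this gene stood apart from the other lid subunits tested. It is the 250 bases before the gene's start, at chr19:38374321-38374570 on the plus strand of GRCh38.p14 (RefSeq), 5′ to 3′, with motif matches in capitals.
PSMD8: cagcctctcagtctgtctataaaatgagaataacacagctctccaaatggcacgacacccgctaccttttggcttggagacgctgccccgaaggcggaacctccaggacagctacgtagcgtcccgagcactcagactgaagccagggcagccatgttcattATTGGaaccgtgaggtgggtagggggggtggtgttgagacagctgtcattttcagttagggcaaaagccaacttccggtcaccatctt
The motifs searched, on both strands, were the CCAAT box and TGACNNNGC, the core of the antioxidant response element, through which NFE2L1 and NFE2L2 act. The capitals in PSMD8 mark a CCAAT box on the opposite strand, which begins 88 bases before the start. A match describes letters and is not evidence of a bound site.

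The other lid subunits tested moved less. PSMD6 was higher, with 2441, 2464 and 2673 in the controls and 2892, 2980 and 2882 with the decoy. The groups did not overlap (0.21, SE 0.05, adjusted p = 0.00704, limma), but the difference was 0.04 on the deposited signals (adjusted p = 0.844), and the adjusted p was 0.106 after centring. PSMD14, the lid enzyme that removes ubiquitin chains, read 2938, 3103 and 3194 in the controls and 3093, 3127 and 3089 with the decoy, which is no difference beyond the spread (0.01, SE 0.05, adjusted p = 0.867). PSMD3, PSMD11 and PSMD12 had differences of −0.06, 0.14 and 0.09 (adjusted p = 0.466, 0.0807 and 0.251). PSMD11 passed as lower on its probe set without a cross-hybridisation suffix (−0.33, adjusted p = 0.0261) and as higher without decoy replicate 1 (0.19, adjusted p = 0.0324), and PSMD12 passed as higher with the mean of its probe sets (0.26, adjusted p = 0.00358). The signs of PSMD12 and PSMD14 turned on the deposited signals.

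In the base, PSMD4, the subunit that captures ubiquitin chains, was higher. Its signal was 2465, 2477 and 2681 in the controls and 2975, 2983 and 2923 with the decoy, with no overlap and a difference of 0.22 (SE 0.05, adjusted p = 0.00442, limma). On the deposited signals it was 0.05 (adjusted p = 0.806), and the adjusted p was 0.0831 after centring and 0.199 with the mean of all its probe sets. The large scaffold subunits lay on the other side of 0. PSMD1 read 1827, 1778 and 1683 in the controls and 1728, 1418 and 1454 with the decoy, overlapping through decoy replicate 1, and missed the threshold narrowly (−0.21, SE 0.07, adjusted p = 0.0511). It passed on the deposited signals (adjusted p = 0.0478) and after centring (adjusted p = 0.0344), and without decoy replicate 1 (−0.30, adjusted p = 0.00467). PSMD2 differed by −0.07 (adjusted p = 0.248), although its decoy arrays (3537, 3547 and 3575) all lay below its controls (3707, 3652 and 3797).

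The 5 ATPases tested, which belong to the unfolding ring, ranged from −0.13 to 0.16. PSMC5, also an ATPase of the ring, was not among the genes with a probe set of their own. PSMC1 was higher, with 1979, 2149 and 2088 in the controls and 2227, 2314 and 2427 with the decoy (0.16, SE 0.05, adjusted p = 0.0339, limma). PSMC2 was lower, with 3435, 3335 and 3335 against 3047, 3164 and 3042 (−0.13, SE 0.04, adjusted p = 0.0399). For both genes the groups did not overlap, and neither call was firm. PSMC1 differed by 0.02 on the deposited signals (adjusted p = 0.919) and lost its call without control replicate 1 (adjusted p = 0.125), control replicate 3 (0.0581), decoy replicate 2 (0.0811) or decoy replicate 3 (0.101). PSMC2 lost its call in each of the 6 fits that left out 1 array, with adjusted p-values from 0.0563 to 0.108, and on the deposited signals (−0.28, adjusted p = 0.0845). It also lost its call with the mean of its probe sets (−0.18, adjusted p = 0.0718) and with the one free of a cross-hybridisation suffix (−0.08, adjusted p = 0.589). PSMC3, PSMC4 and PSMC6 had differences of 0.02, 0.09 and 0.13 (adjusted p = 0.814, 0.191 and 0.134), and for PSMC4 and PSMC6 the decoy arrays all lay above the controls. The signs of PSMC3 and PSMC4 turned on the deposited signals.

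On the probe sets used, PSMF1 and the activators together ran from −0.68 (PSMF1) to 0.35 (PSME3). PSMF1, also known as PI31, binds the proteasome and was named for inhibiting the core particle in vitro. Its signal was 362, 376 and 391 on the control arrays and 228, 231 and 241 on the decoy arrays. The groups were far apart (376 ± 14.4 and 233 ± 6.65), and the difference was −0.68 (SE 0.08, adjusted p = 8.21e-05, limma), or 1.6-fold lower with the decoy. The 3 other probe sets of PSMF1 did not share it: they differed by 0.20 (150 ± 9.23 and 173 ± 5.31), −0.12 (means of 32.8 and 29.0) and 0.09 (24.3 and 26.5). With the mean of all its probe sets, PSMF1 differed by −0.13 (adjusted p = 0.457), and with the probe set free of a cross-hybridisation suffix by −0.12 (adjusted p = 0.775).

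The activators open the gate of the core without ATP. PSME3, the nuclear activator REG gamma, read 558, 550 and 650 in the controls and 778, 728 and 730 with the decoy. Every decoy array lay above every control, with a difference of 0.35 (SE 0.08, adjusted p = 0.00508, limma), which was 0.28 on the deposited signals (adjusted p = 0.118). Its other 3 probe sets differed by 0.41, 0.16 and −0.15, and with the mean of all 4 the difference was 0.19 (adjusted p = 0.0964). PSME4, the activator PA200, fell: its signal was 511, 535 and 475 in the controls and 396, 416 and 405 with the decoy. The groups did not overlap, with a difference of −0.32 (SE 0.08, adjusted p = 0.00692) that was −0.39 on the deposited signals (adjusted p = 0.0207). The other probe sets of PSME4 showed no such difference (0.02 and −0.01), and with the mean of all 3 the adjusted p was 0.584.

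PSME1, a subunit of the interferon-inducible activator, read 865, 875 and 1015 in the controls and 894, 899 and 907 with the decoy. The decoy arrays lay within the range of the controls (−0.02, SE 0.07, adjusted p = 0.825, limma). Its partner PSME2 lies on a probe set that the annotation also gives to MIR7703, so it was not counted or tested. That probe set read 1508, 1699 and 1599 in the controls and 2030, 1965 and 1803 with the decoy, a difference of 0.27. The alpha subunit PSMA6 likewise shares its probe sets with PRORP. The brighter one read 3415, 3596 and 3772 in the controls and 4323, 4108 and 4379 with the decoy (0.25), the dimmer one differed by −0.20, and neither was tested.

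**Figure D3:**
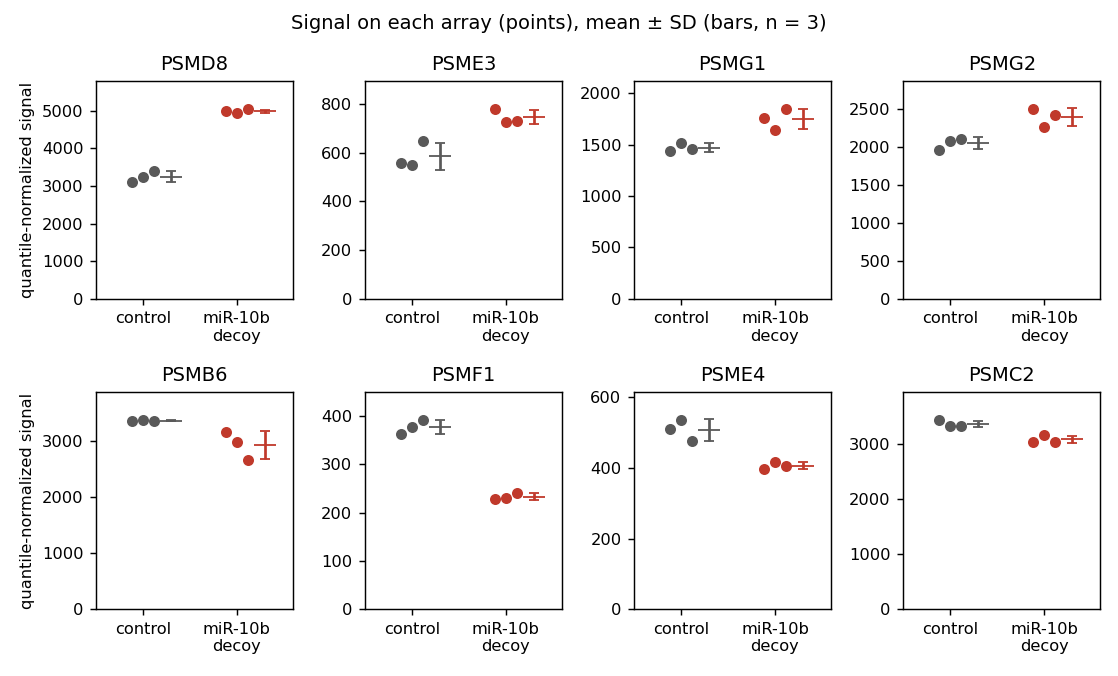
Quantile-normalized signal (vertical axis, from 0) on each array for 8 proteasome genes that passed the test, with mean ± SD (n = 3) beside the points; the upper row holds genes that were higher with the miR-10b decoy and the lower row genes that were lower. In each of the 8 panels the decoy points lie clear of the control points, with the widest gaps for PSMD8 (3408 against 4940) and PSMF1 (362 against 241).

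Among the chaperones that assemble the core, the pair that acts first was higher. PSMG1 and PSMG2 bind each other and arrange the alpha ring. PSMG1 read 1434, 1515 and 1460 in the controls and 1759, 1646 and 1843 with the decoy (1470 ± 41.5 and 1749 ± 98.6), a difference of 0.25 (SE 0.06, adjusted p = 0.00589, limma). PSMG2 read 1954, 2075 and 2105 in the controls and 2488, 2253 and 2415 with the decoy (2044 ± 79.9 and 2385 ± 121), a difference of 0.22 (SE 0.05, adjusted p = 0.00865). For both genes every decoy array lay above every control. On the deposited signals the differences were 0.13 (adjusted p = 0.499) and 0.09 (adjusted p = 0.662), and after centring PSMG1 passed the test (adjusted p = 0.0223) and PSMG2 did not (adjusted p = 0.0594).

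The second pair, PSMG3 and PSMG4, did not pass the test. PSMG3 read 563, 510 and 519 in the controls and 660, 578 and 555 with the decoy, overlapping through control replicate 1 and decoy replicate 3 (0.17, SE 0.08, adjusted p = 0.143, limma). PSMG4 read 442, 433 and 437 in the controls and 429, 392.3 and 419 with the decoy. Its decoy arrays lay just below the controls (−0.08, SE 0.07, adjusted p = 0.44). Its probe set without a cross-hybridisation suffix gave 0.35 instead, on low signals near the filter (15.5 and 21.9 in the control and decoy means).

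The chaperones of the regulatory particle's base carry PSMD names. PSMD5 was higher, with 418, 448 and 511 in the controls and 566, 583 and 567 with the decoy, without overlap (459 ± 47.2 and 572 ± 9.66; 0.32, SE 0.08, adjusted p = 0.0111, limma). PSMD9 was higher too, with 1282, 1285 and 1347 against 1460, 1486 and 1501 (0.18, SE 0.05, adjusted p = 0.019). PSMD10, also called gankyrin and known as an oncoprotein in liver cancer, read 2153, 2147 and 2386 in the controls and 2114, 2346 and 2319 with the decoy, so the groups overlapped (0.02, adjusted p = 0.829). With the mean of both its probe sets PSMD5 differed by 0.37 (adjusted p = 0.223), the second being below the filter on low signals. On the deposited signals PSMD5 differed by 0.24 (adjusted p = 0.186), PSMD9 by 0.07 (adjusted p = 0.721) and PSMD10 by −0.12. PSMD9 also lost its call after centring (adjusted p = 0.0520), with the mean of its probe sets and without an intensity trend. The same held without control replicate 1 (adjusted p = 0.0586), control replicate 2 (0.0763) or decoy replicate 2 (0.0602).

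The motif TGACNNNGC was also found upstream of members that were lower or did not pass, as counted below. The upstream sequences of 3 chaperones are shown as examples, picked among the higher members that hold it. Each is the 250 bases before the start in GRCh38.p14 (RefSeq), 5′ to 3′ on the gene's strand, with capitals for matches to TGACNNNGC and, in PSMG1, the CCAAT box. PSMG1 lies at chr21:39183452-39183701 on the minus strand, PSMD5 at chr9:120842923-120843172 on the minus strand and PSMD9 at chr12:121888540-121888789 on the plus strand.
PSMG1: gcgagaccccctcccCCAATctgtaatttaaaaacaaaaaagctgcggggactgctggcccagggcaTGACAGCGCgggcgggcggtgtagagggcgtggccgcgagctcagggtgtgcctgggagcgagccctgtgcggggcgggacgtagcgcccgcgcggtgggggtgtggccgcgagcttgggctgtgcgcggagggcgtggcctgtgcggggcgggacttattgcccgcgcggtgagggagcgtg
PSMD5: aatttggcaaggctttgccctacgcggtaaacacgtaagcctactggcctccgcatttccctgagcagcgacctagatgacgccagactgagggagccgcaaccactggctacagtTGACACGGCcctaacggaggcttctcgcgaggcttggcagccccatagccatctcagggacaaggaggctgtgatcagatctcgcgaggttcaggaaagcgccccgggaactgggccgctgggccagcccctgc
PSMD9: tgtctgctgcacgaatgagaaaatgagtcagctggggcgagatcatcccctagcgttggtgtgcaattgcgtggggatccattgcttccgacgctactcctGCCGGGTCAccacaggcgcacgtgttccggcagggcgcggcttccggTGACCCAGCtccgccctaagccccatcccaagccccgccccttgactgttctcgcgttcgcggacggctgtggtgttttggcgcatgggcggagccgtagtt
In PSMG1 the letters TGACAGCGC begin 183 bases before the start, after a CCAAT box at 235. In PSMD5 the letters TGACACGGC begin 134 bases before the start. PSMD9 holds TGACCCAGC at 102 and GCCGGGTCA, a match on the opposite strand, at 149.

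The table of promoters held 34 of the 40 proteasome genes. TGACNNNGC was found upstream of 10 of them (29.4%) and of 13.2% of all 27305 genes in the table, counting a gene once if any of its listed starts had the match. By promoter, 10 of 40 held it, against 10.9% of all 35116. It was found in 4 of the 9 higher genes in the table (PSMD5, PSMD9, PSMG1 and PSMG2, the last at 1 of 2 listed starts), in 1 of the 3 lower genes (PSME4) and in 5 of the 21 tested genes that did not pass. The CCAAT box was found upstream of 15 of the 34 genes (44.1%) and of 37.0% of all genes. It was found in 5 of the 9 higher genes (PSMA5, PSMD6, PSMD8, PSME3 and PSMG1), in PSMC2 among the 3 lower genes and in 9 of the 21 that did not pass. These shares are descriptions, and no difference between them was tested.

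Many of the genes have more than 1 probe set, and these did not always move alike. Of 32 further probe sets above the filter, 21 differed in the same direction as the one used. PSMB2 showed the widest gap: the probe set used differed by −0.10, and its others by −0.51 (255 and 177 in the control and decoy means) and −1.14 (250 ± 25.8 and 110 ± 18.3). PSMD12 differed by 0.09 on the probe set used and by 0.43 on the other (1054 and 1425), while PSMD11 differed by 0.14 and −0.33 (272 and 216 on the other). The 3 probe sets of PSMD4 above the filter differed in the same direction (0.22, 0.08 and 0.12), as did both of PSMD1 (−0.21 and −0.31). The second probe set of PSMD9 differed by −0.08 (86.0 and 81.7), against 0.18 on the one used.

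**Figure D4:**
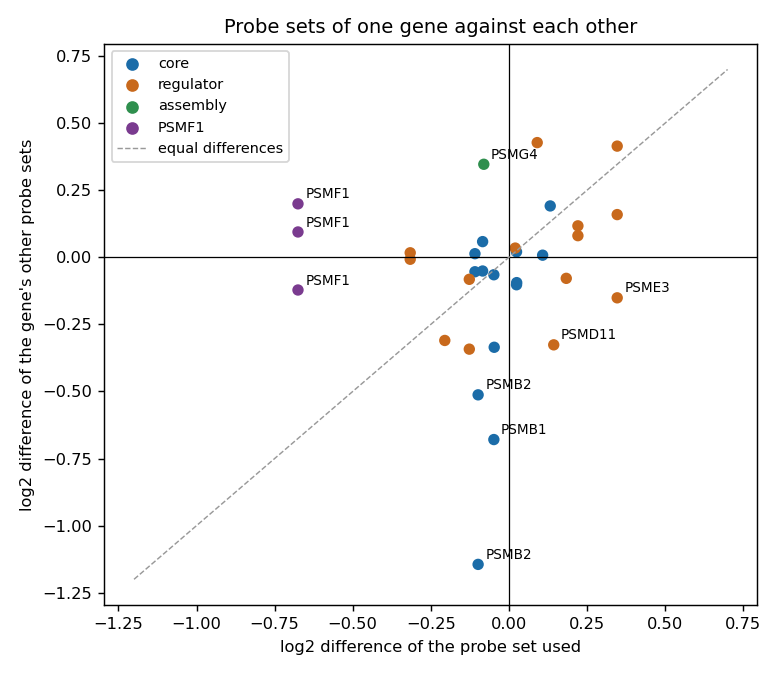
Log2 difference (decoy minus control) of each further probe set above the filter (vertical axis) against that of the probe set used for its gene (horizontal axis), with a dashed line where both are equal. Points of PSMF1 sit far above the line at −0.68 on the horizontal axis, and a point of PSMB2 lies far below it at −1.14 on the vertical axis.

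Of the 8 genes that share only the name pattern, 6 passed the filter and 1 passed the test. PSMC3IP, a partner of recombinases in meiosis and DNA repair, read 370, 350 and 348 in the controls and 228, 232 and 203 with the decoy. The groups lay far apart (−0.67, SE 0.09, adjusted p = 1.41e-04, limma), and its other probe set differed by −0.60. PSME3IP1, which binds PSME3, differed by −0.13 (adjusted p = 0.223), and the antisense transcript PSMG3-AS1 by 0.45 (30.3, 33.8 and 34.1 against 43.2, 40.3 and 60.0, adjusted p = 0.122).

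Among genes that work beside the proteasome, SQSTM1 and MAFG differed by more than any of the 39 proteasome genes. Of 12 tested proteasome-bound factors and chaperones outside the PSM names, 3 were higher and 1 was lower, where 16.6% of all tested genes were higher and 17.3% were lower. AKIRIN2, which brings proteasomes into the nucleus, read 609, 590 and 649 in the controls and 867, 927 and 856 with the decoy (0.52, SE 0.07, adjusted p = 1.51e-04, limma). ADRM1, a ubiquitin receptor of the base, differed by 0.28 (adjusted p = 9.65e-04), and TXNL1, a thioredoxin bound to the regulatory particle, by 0.23 (adjusted p = 0.00601). UCHL5, the deubiquitinase that ADRM1 holds on the proteasome, fell by 0.36 on the log2 scale (adjusted p = 0.0106). It lost its call with the mean of its probe sets (adjusted p = 0.248) and with the probe set free of a suffix (adjusted p = 0.525), and TXNL1 lost its call after centring (adjusted p = 0.0837) and with the mean of its probe sets (adjusted p = 0.751). The deposited signals gave 1 higher (AKIRIN2) and 1 lower (UCHL5), where 7.9% and 18.5% of all tested genes were higher and lower.

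Of 7 genes for the transcriptional control of proteasome and antioxidant genes, 5 were higher and 0 were lower, beside 16.6% and 17.3% of all tested genes. MAFG, a small partner of NFE2L1 and NFE2L2 at antioxidant response elements, read 251, 201 and 202 in the controls and 406, 393 and 460 with the decoy. The groups lay far apart (0.93, SE 0.11, adjusted p = 5.81e-05, limma). MAFF, another small partner, differed by 0.24 (adjusted p = 7.84e-04), and KEAP1, which marks NFE2L2 for degradation, by 0.39 (adjusted p = 0.0052). NFE2L1 itself read 2380, 2475 and 2265 in the controls and 3057, 2551 and 2717 with the decoy (0.22, SE 0.07, adjusted p = 0.0219), and BACH1, a repressor at the same elements, differed by 0.46 with overlapping groups (adjusted p = 0.0223). NFE2L2 differed by −0.03 (adjusted p = 0.77). The count was 4 after centring and 2 on the deposited signals (MAFG and BACH1), where 7.9% of all tested genes were higher. NFE2L1 lost its call in both scalings and without control replicate 3 or decoy replicate 1. BACH1 lost its call without control replicate 1, control replicate 2, decoy replicate 2 or decoy replicate 3.

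Of 12 tested shuttle factors and genes of the p97 segregase, 5 were higher and 1 was lower, beside 16.6% and 17.3% of all tested genes. SQSTM1, the p62 receptor that carries ubiquitinated proteins to autophagy, read 2578, 2491 and 2650 in the controls and 6113, 6062 and 6705 with the decoy. This is a 2.44-fold difference between groups that lay far apart (1.29, SE 0.05, adjusted p = 2.37e-08, limma), and it was 1.14 on the deposited signals. The shuttles RAD23B and UBQLN2, which hand ubiquitinated proteins to the proteasome, differed by 0.31 (adjusted p = 7.83e-04) and 0.34 (adjusted p = 0.00307). VCP, the p97 ATPase that pulls proteins out of complexes and membranes, was lower, with 1950, 1857 and 1843 in the controls and 1361, 1509 and 1456 with the decoy (−0.38, SE 0.06, adjusted p = 3.43e-04). With the probe sets free of a suffix VCP differed by −0.12 (adjusted p = 0.204) and UBQLN2 by 0.19 (adjusted p = 0.373), and with the mean of its probe sets RAD23B differed by 0.11 (adjusted p = 0.417). The deposited signals gave 1 higher (SQSTM1) and 1 lower (VCP), where 7.9% and 18.5% of all tested genes were higher and lower.

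Of 9 ubiquitin genes and activating or conjugating enzymes, 2 were higher and 1 was lower, beside 16.6% and 17.3% of all tested genes. The conjugating enzymes UBE2R2 and UBE2G2 differed by 0.38 (adjusted p = 0.00237) and 0.23 (adjusted p = 0.0219), while UBA1, the main activating enzyme, fell by 0.32 on the log2 scale (adjusted p = 0.008, limma). UBA1 lost its call with the mean of its probe sets (adjusted p = 0.0978). UBE2G1 missed the threshold (−0.16, adjusted p = 0.0559) and passed it without decoy replicate 3 (−0.19, adjusted p = 0.0329). The deposited signals gave 0 higher and 1 lower, where 7.9% and 18.5% of all tested genes were higher and lower. UBE2G2 lost its call with the mean of its probe sets, with the one free of a suffix and without an intensity trend. It also lost its call without control replicate 3, decoy replicate 1 or decoy replicate 2.

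Of 9 genes for inducible subunits and peptide loading, 1 was higher and 3 were lower, beside 16.6% and 17.3% of all tested genes. The deposited signals gave 0 and 2, beside 7.9% and 18.5% of all tested genes. PSMB9, the inducible counterpart of PSMB6, read 742, 739 and 763 in the controls and 665, 648 and 598 with the decoy (−0.23, SE 0.07, adjusted p = 0.0197, limma). It did not overlap between the groups, but it lost its call on the deposited signals and without control replicate 2, control replicate 3 or decoy replicate 3. ERAP2, which trims peptides for display, fell by 0.53 (adjusted p = 3.2e-04), and TAPBP, which helps load them, by 0.33 (adjusted p = 0.0116). The TAPBP call was lost with the mean of its probe sets (−0.09, adjusted p = 0.840), without moderation (adjusted p = 0.0806) and without control replicate 2. TAP2, a subunit of the peptide transporter, was higher (0.43, adjusted p = 0.00503) on the probe set used, did not pass on the deposited signals (adjusted p = 0.0907) and differed by −0.18 with the mean of all its probe sets (adjusted p = 0.506). PSMB8 differed by 0.15 (adjusted p = 0.174).

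**Figure D5:**
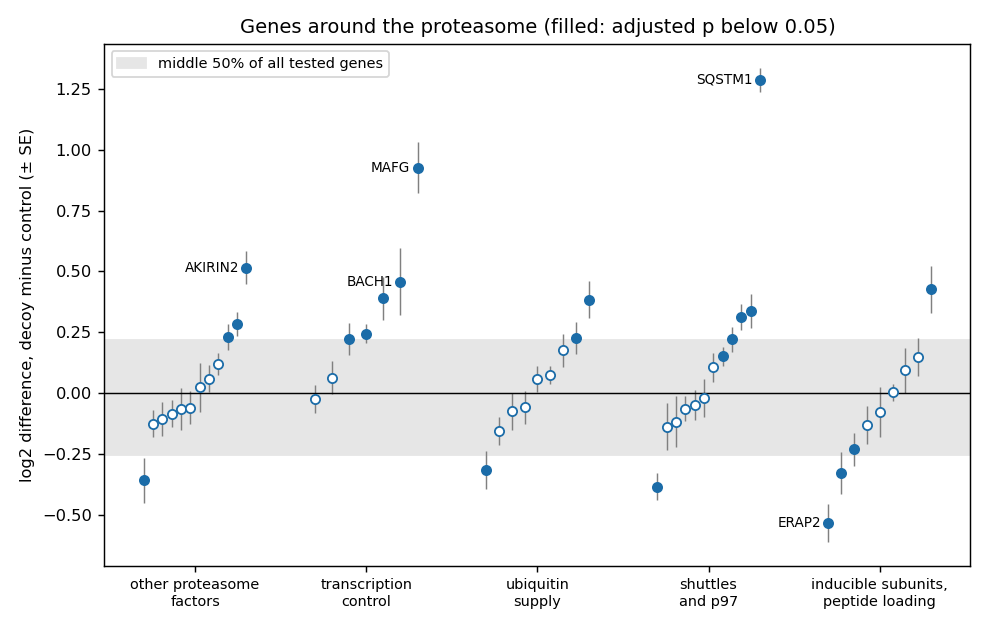
Log2 difference (decoy minus control, vertical axis) with its standard error for each tested gene of 5 lists around the proteasome, filled where the adjusted p is below 0.05; the grey band spans the middle 50% of all tested genes. SQSTM1 (1.29) and MAFG (0.93) lie far above the band, and ERAP2 (−0.53) lies farthest below it.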

How the data were processed

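The 6 arrays measured RNA as probe set intensities on a linear scale, which the authors deposited as the MAS5 output, per the submitters' processing notes. Its version and its target for scaling are unknown here. Of 54675 probe sets, 41097 carried 1 gene symbol, 1801 several and 11777 none. Control probe sets (62) were left out.

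The deposited intensities were quantile-normalized, turned into log2(signal + 7) and reduced to 1 probe set per gene. Genes below a mean deposited signal of 15.6 (the 30th percentile) were left out, which kept 13842. The offset makes fold changes of dim genes appear smaller than they are. Groups were taken from the sample titles and compared with limma 3.58.1 in R 4.3.3 (lmFit, eBayes with an intensity trend, two-sided, Benjamini-Hochberg over all 13842 genes, threshold 0.05), with 7.68 prior and 4 residual degrees of freedom. The fit was tested on simulated data. Alternatives covered scaling, offset, filter, probe set, moderation, the replicate block and each array left out. The number of arrays limits the precision.

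The members, gene lists and tests were chosen with earlier results of these data known. Every proteasome protein was named, with array values for those past the threshold, the catalytic, activator and PSMG members and PSMF1; of each list, up to 4 genes with the smallest p. BACH1, NFE2L2 and PSMB8 were named after their values were seen, as were PSMB4, PSMA1, PSMD1, PSMD2, PSMD10, PSMD14 and PSMA2 for their array values. Gene names were matched by Entrez identifier to RefSeq (GRCh38.p14) for all 40 proteins. Coordinates come from the RefSeq promoter table, not from the arrays.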

Additional observations from a re-analysis of the deposited data

How the results depend on the processing

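Scaling moved the proteasome counts most: 10 higher and 4 lower became 1 and 4 on the deposited signals, with 1094 genes higher over all, and 4 and 8 after centring, and the members' median became −0.12 and −0.025. With the mean of all probe sets 5 were higher, with 1462 genes higher and 1574 lower over all. Without the intensity trend there were 4 higher and 2 lower (1801 genes higher and 1807 lower over all). Without moderation there were 6 higher (1450 genes higher and 1379 lower over all), and without the filter 2 lower (2092 of 19775 genes over all). Leaving out 1 array gave 7 to 10 higher, 2 to 4 lower and a median from 0.011 to 0.062. Over all genes these fits gave 1873 to 2150 higher and 1832 to 2148 lower. The replicate numbers did not pair the samples (correlations of deviations 0.03, −0.03 and −0.01), and the fit with the replicate block gave 9 higher and 4 lower, or 2219 and 2335 over all genes. With 17 settings, 551 of the members' values kept direction and side of the threshold, 66 lost it, 18 gained it and 27 reversed. The direction reversed on the deposited signals for PSMA3 (−0.15), PSMA4 (−0.076), PSMA5 (−0.016), PSMA7 (−0.055), PSMB7 (−0.12), PSMC3 (−0.086), PSMC4 (−0.018), PSMD10 (−0.12), PSMD12 (−0.026) and PSMD14 (−0.16). After centring it reversed for PSMA3 (−0.061), PSMB7 (−0.027), PSMD10 (−0.031) and PSMD14 (−0.064). With the mean of all probe sets it reversed for PSMA3 (−0.019), PSMB7 (−0.035), PSMD11 (−0.091) and TAP2 (−0.18, against a called 0.43), and with the probe set free of a suffix for PSMD11 (−0.33, past the threshold) and PSMG4 (0.35, not past it). With 1 array left out, PSMB7 ran from −0.0080 to 0.067, PSMC3 from −0.044 to 0.062, PSMD10 from −0.0084 to 0.070, PSMD14 from −0.021 to 0.039 and PSME1 from −0.067 to 0.049. The cause of these changes was not tested. Genes near background were left out by the filter, and the number of arrays limits every other value.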
